A study of Homo sapiens with 4 samples.

Results

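AP-1 and the immediate-early transcription factors were examined in A549 cells, a human lung adenocarcinoma line, with and without overexpression of USP12, a deubiquitinase. The set held 10 genes, taken by symbol from the 50868 genes of the count files, namely the FOS subfamily (FOS, FOSB, FOSL1, FOSL2), the JUN subfamily (JUN, JUNB, JUND), and MAFF, ATF3 and EGR1. Each symbol matched 1 row, and all 10 passed the filter on low counts that left 15222 genes for testing. The members were taken by symbol and by no cut on measured values, though with earlier results of these data known. The study describes its control A549 cells as vector controls. The study asked which transcripts differ between lung tumour cells with and without USP12 overexpression, and sequenced stranded mRNA libraries from 2 control and 2 USP12-overexpressing A549 samples. The labels name the cell line and the treatment, give no time point, and do not say whether the replicates came from separate cultures, so that p-values here measure only the spread between these libraries, which may be technical.

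AP-1 is a dimer of basic leucine zipper proteins. A JUN protein pairs with itself or with a FOS protein, FOS proteins need a partner, and the dimer binds a short palindromic DNA site in the promoters and enhancers of genes for growth, invasion and inflammation. FOS, FOSB, EGR1, ATF3, JUN and JUNB belong to the immediate-early genes, which are transcribed within minutes of growth factor, cytokine or stress signals without new protein synthesis, and the ERK pathway keeps FOSL1 expressed and its protein stable. MAFF is a small MAF protein that lacks a transactivation domain and pairs with CNC proteins such as NRF2, and EGR1 is a zinc finger factor outside the basic leucine zipper family.

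The promoters of the members at the ends of the measured range are shown because motifs for AP-1, CREB and SRF upstream of these genes are the classical sites through which signals reach them. MAFF and FOS had the lowest USP12 minus control differences of the 10 and FOSL2 and JUNB the highest. Each line gives the 250 bases upstream of the RefSeq transcript start (GRCh38.p14, plus strand, 5′ to 3′), with a matched motif in capitals.
MAFF, chr22:38201744-38201993: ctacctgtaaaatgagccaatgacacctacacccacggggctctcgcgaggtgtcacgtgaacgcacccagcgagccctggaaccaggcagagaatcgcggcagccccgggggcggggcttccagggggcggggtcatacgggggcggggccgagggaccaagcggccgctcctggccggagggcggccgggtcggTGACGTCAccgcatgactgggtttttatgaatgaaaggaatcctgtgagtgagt
FOS, chr14:75278578-75278827: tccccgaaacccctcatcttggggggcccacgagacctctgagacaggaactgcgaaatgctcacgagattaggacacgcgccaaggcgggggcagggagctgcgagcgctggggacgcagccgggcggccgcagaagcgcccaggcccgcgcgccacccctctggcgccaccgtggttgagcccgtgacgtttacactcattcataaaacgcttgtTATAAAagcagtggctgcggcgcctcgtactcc
FOSL2, chr2:28392608-28392857: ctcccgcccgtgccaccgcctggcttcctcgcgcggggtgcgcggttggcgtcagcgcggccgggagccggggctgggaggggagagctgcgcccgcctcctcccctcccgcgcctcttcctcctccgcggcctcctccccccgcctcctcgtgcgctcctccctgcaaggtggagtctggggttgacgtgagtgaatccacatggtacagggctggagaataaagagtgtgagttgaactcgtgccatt
JUNB, chr19:12791236-12791485: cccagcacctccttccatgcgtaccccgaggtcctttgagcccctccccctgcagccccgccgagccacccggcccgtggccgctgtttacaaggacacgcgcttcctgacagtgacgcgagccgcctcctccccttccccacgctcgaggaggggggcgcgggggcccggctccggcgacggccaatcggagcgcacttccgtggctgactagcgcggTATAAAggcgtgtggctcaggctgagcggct
The capitals mark a cAMP response element, TGACGTCA, in MAFF and a TATA box, TATAAA, in FOS and JUNB, while FOSL2 held no match. For MAFF and ATF3, which have 2 RefSeq starts each, the more upstream one was used. The windows of MAFF and FOSL2 lie inside the annotated genes, which start at 38200767 and 28392448. What they hold, or lack, therefore describes the region before that RefSeq start and not the first promoter of the gene.

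Of the 10 members, 9 matched a window in the RefSeq promoter table, and both strands were searched for the AP-1 site TGANTCA, the cAMP response element TGACGTCA, the CArG box bound by SRF, the EGR1 site GCGNGGGCG and the TATA box TATAAA. No member window held the AP-1 site, which 6.57% of all 35116 windows of this length held. The cAMP response element, which binds CREB, ATF and some AP-1 dimers, lay at positions -54 to -47 of MAFF and -200 to -193 of JUND, and 1.65% of all windows had it. EGR1 held 2 CArG boxes, at -105 to -96 and -83 to -74, against 1.16% of windows with any, and an EGR1 site at -198 to -190, against 8.41% of windows. A TATA box stood at -33 to -28 in FOS, -30 to -25 in FOSB and -31 to -26 in JUNB, and 10.7% of windows had one. The windows of JUN, ATF3 and FOSL2 held none of the 5 motifs. A match is a string of letters and was not tested as a binding site, and a window without these letters says nothing about what binds there.

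**Figure D1:**
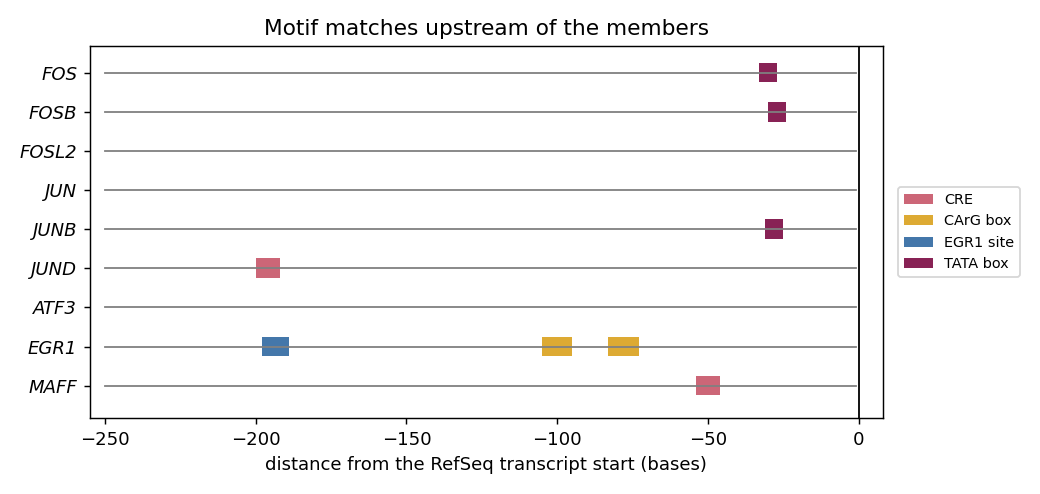
Motif matches in the 250 bases upstream of the RefSeq transcript start of 9 members, with the distance from the start in bases on the x axis and 1 line for each gene. The coloured blocks show a TATA box close to the start of FOS, FOSB and JUNB, a cAMP response element (CRE) in MAFF and JUND, and 2 CArG boxes with an EGR1 site in EGR1.

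The 4 libraries held 14280081 to 16305356 assigned fragments. Levels below are CPM with TMM scaling, each library's counts being set relative to its size, on which 3 counts, the floor used here, equal 0.166 to 0.227 CPM. USP12 itself was at 15.2 and 34.4 CPM in the controls and at 1745 and 2235 CPM in the USP12 libraries, as the labels have it in all 4 libraries. Control replicate 1 stood apart from the other 3: the SD of log2 ratios over tested genes was 1.32 between the controls and 0.62 between the USP12 libraries, and its column heading carries another date-like prefix than the other 3. A batch of 1 library cannot be told apart from that sample, so differences are given against each control as well. The 6 epithelial genes summed to 6794 to 12896 CPM, most of it from the keratins KRT8, KRT18 and KRT7, while EPCAM was at 9.70 to 28.5 CPM. These genes mark epithelial cells and do not single out A549. The sums were far lower for markers of blood (47.7 to 79.8 CPM), stromal (3.10 to 20.01 CPM) and endothelial cells (0.432 to 15.4 CPM). CD3E and DCN were at 0 counts in every library and PTPRC at 1 count at most. Not all were absent. COL1A1 was at 2.60 to 18.9 CPM over the libraries. CDH5 and PECAM1 were at 3.10 to 10.3 CPM in the controls and at 0.144 to 0.970 CPM with USP12. The macrophage and lysosome gene CD68 was the highest of these markers, at 46.8 to 79.0 CPM in all 4 libraries.

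Most members were lower with USP12, though none by the adjusted test. Of the 10, 9 had a USP12 minus control estimate below 0, as did 53.6% of all tested genes, and the median log2 difference was -0.72 against -0.06 over all genes. In 7 members both USP12 libraries lay below both controls, and in none did both lie above, while 17.0% of all tested genes lay below and 19.5% above. Of these, only MAFF and JUND had groups apart beyond counting error. In FOS, FOSL1, JUN, ATF3 and EGR1 the Poisson 95% intervals of the nearest USP12 and control libraries overlapped. By an adjusted p under 0.05 (edgeR quasi-likelihood test, Benjamini-Hochberg over all genes), 0 members were lower and 0 higher, with 0% of all genes called in either direction. At an unadjusted p under 0.05 there was 1 member, MAFF, beside 1155 of the 15222 genes. By adjusted p the DESeq2 Wald test called MAFF lower, beside 277 lower and 133 higher over all genes. The edgeR exact test called 0 members by adjusted p, beside 262 lower and 167 higher over all genes. By a nominal rule, an unadjusted p of 0.05 or less with a log2 difference of at least 1 in size, 1 member was lower and 0 were higher, beside 4.41% of all genes lower and 2.92% higher. The study used this cut-off for lower genes, and it is applied here in both directions. These counts changed when single libraries were left out, as did those over all genes. Such a fit leaves 1 library in a group, so that its spread comes from the other group's pair alone. Calls from these fits depend on the value of the library kept. They describe that dependence and cannot show whether a member differs between the groups. Without control replicate 1 the nominal rule gave 3 members lower and 1 higher, beside 8.01% and 7.94% of all genes. In that fit the adjusted edgeR test called ATF3 lower and JUNB higher, beside 5.74% and 4.73% of all genes. Without control replicate 2 it called FOS, JUND and MAFF lower and no member higher, beside 16.3% and 15.9% of all genes. Without USP12 replicate 2 the nominal rule called 0 members lower, beside 2.09% of all genes. With 2 libraries a group, an exact permutation test could not go below a two-sided p of 0.333, so that none was run on single members.

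**Figure D2:**
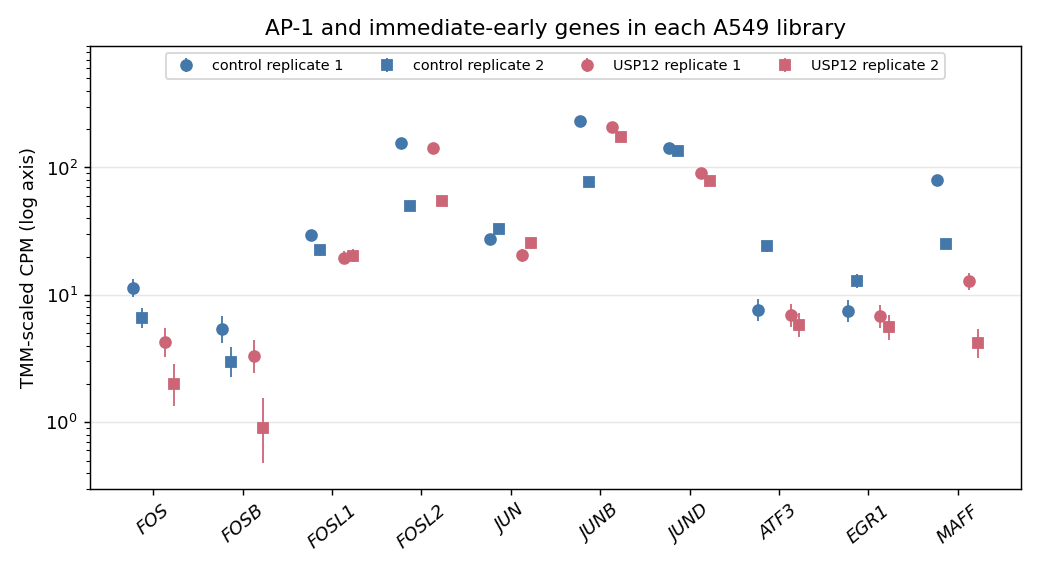
TMM-scaled CPM (log axis) of the 10 members in each library, circles for replicate 1 and squares for replicate 2, controls in blue and USP12 in red, with bars for the exact Poisson 95% interval of the count (counting error only). The 2 USP12 points lie below both control points for FOS, FOSL1, JUN, JUND, ATF3, EGR1 and MAFF, and the groups overlap for FOSB, FOSL2 and JUNB.

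MAFF (ENSG00000185022, chr22:38200767-38216507, plus strand) had the lowest difference in the set. It was at 79.1 and 24.99 CPM in the controls and at 12.8 and 4.16 CPM in the USP12 libraries. The groups did not overlap, but the libraries of each group were far apart: replicate 2 minus replicate 1 was -1.66 on the log2 scale in the controls and -1.59 in the USP12 pair, the latter a wider gap than 97.2% of tested genes showed. The mean fell from 52.1 ± 38.3 to 8.48 ± 6.12 CPM (SD, n = 2 each). The log2 difference of -2.62 (SE 0.80) met the nominal rule but not the adjusted threshold (edgeR quasi-likelihood adjusted p = 0.436). Against control replicate 1 alone the log2 difference was -3.41, and against control replicate 2 alone it was -1.75. Over the 12 alternative fits the MAFF estimate stayed below 0, between -3.62 and -1.56. With every library kept, its adjusted p was under 0.05 with no filter, by the DESeq2 Wald test, and with a replicate block (edgeR adjusted p = 0.00270). It was also under 0.05 with block and GC content offset, and not in the other fits of this kind. PLA2G6, which overlaps MAFF on the opposite strand, was at 7.37 to 10.7 CPM with an estimate of the other sign, 0.39.

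FOS (ENSG00000170345, chr14:75278826-75282230, plus strand), whose protein c-FOS is the short-lived prototype of the family, had few counts in all libraries. Its counts were 149 and 119 in the controls and 59 and 29 in the USP12 libraries, or 11.3 and 6.59 against 4.25 and 2.01 CPM. Both USP12 libraries lay below both controls, and the exact Poisson 95% intervals of control replicate 2 (5.46 to 7.89 CPM) and USP12 replicate 1 (3.23 to 5.48 CPM) met only at their ends. The log2 difference was -1.51 (SE 0.63), which did not pass either rule (edgeR quasi-likelihood adjusted p = 0.671). It lay close to the nominal rule, which it passed with no filter, at least 10 counts in every library, the DESeq2 Wald test and the edgeR exact test. It also passed with a replicate block, a GC content offset and both. No fit that kept every library gave an adjusted p under 0.05. Without control replicate 2 the estimate was -1.82, and without control replicate 1 it was -1.07.

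FOSB (ENSG00000125740, chr19:45467995-45475179, plus strand), like FOS an immediate-early gene, had the lowest level of the set. Its counts were 71 and 54 in the controls and 46 and 13 in the USP12 libraries, or 5.37, 2.99, 3.31 and 0.900 CPM in that order. USP12 replicate 1 lay between the controls, so that the groups overlapped, while the 13 counts of USP12 replicate 2 had an interval of 0.479 to 1.54 CPM, below those of the other 3 libraries. The log2 difference was -0.99 (SE 0.81, edgeR adjusted p = 0.914), and the gap between the USP12 libraries, a log2 difference of -1.74, was larger than that. The estimate was -2.19 without USP12 replicate 1 and -0.32 without USP12 replicate 2. ERCC1, which overlaps FOSB on the opposite strand, was far more abundant at 124 to 290 CPM. Whether counting used strand is not given in the sources used here, so that reads from FOSB and ERCC1 cannot be told apart with certainty.

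FOSL1 (ENSG00000175592, chr11:65892049-65900573, minus strand) encodes FRA1, a FOS protein tied to invasion in epithelial tumours. Its levels were 29.5 and 22.5 CPM in the controls and 19.6 and 20.3 CPM in the USP12 libraries. Both USP12 libraries lay below both controls, narrowly so against control replicate 2. The Poisson intervals of USP12 replicate 2 (18.0 to 22.8 CPM) and control replicate 2 (20.4 to 24.8 CPM) overlapped. The log2 difference was -0.38 (SE 0.42, edgeR adjusted p = 0.942), made up of -0.56 against control replicate 1 and -0.17 against control replicate 2. With a GC content offset it was -0.07.

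FOSL2 (ENSG00000075426, chr2:28392448-28417317, plus strand) encodes FRA2. It was at 156.9 and 49.98 CPM without USP12 and at 142.8 and 54.9 CPM with it. Replicate 1 was high and replicate 2 low in both groups, and the gap within each group (log2 -1.65 and -1.38) was many times the difference between groups, which was -0.06 (SE 0.69, edgeR adjusted p = 0.992). The sign of that difference was not stable, since it was 0.17 with a GC content offset and 0.99 without control replicate 1. The antisense gene FOSL2-AS1 had 10 counts at most in any library, and the gene ENSG00000270640 on the same strand had 0.

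JUN (ENSG00000177606, chr1:58776845-58784048, minus strand), the transactivating partner of most AP-1 dimers, was at 27.3 and 32.9 CPM in the controls and at 20.6 and 25.5 CPM in the USP12 libraries. The groups did not overlap, but the higher USP12 value (Poisson interval 22.95 to 28.2 CPM) lay within counting error of the lower control (24.6 to 30.3 CPM). Its log2 difference was -0.39 (SE 0.42, edgeR adjusted p = 0.940), with close values against the controls taken alone, -0.25 and -0.52.

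JUNB (ENSG00000171223, chr19:12791486-12793315, plus strand), which activates transcription more weakly than JUN and can oppose it, was the only member with an estimate above 0 in the fit to all 4 libraries. It was at 230.0 and 76.3 CPM in the controls and at 206.2 and 174.1 CPM in the USP12 libraries. Control replicate 2 alone was low, and the other 3 libraries were close together. The log2 difference of 0.31 (SE 0.56, edgeR adjusted p = 0.966) therefore split into -0.28 against control replicate 1 and 1.31 against control replicate 2. In the edgeR fit without control replicate 1 the JUNB estimate was 1.32, and in the fit without control replicate 2 it was -0.25. With a GC content offset it was 0.93 (edgeR adjusted p = 0.299). HOOK2, on the opposite strand, was at 9.75 to 20.1 CPM.

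JUND (ENSG00000130522, chr19:18279694-18281622, minus strand), which is expressed in resting cells and responds least to stimuli among the JUN genes, had close replicates in both groups, with log2 gaps of -0.07 and -0.19. Its levels were 142.4 and 135.4 CPM in the controls and 89.8 and 78.8 CPM with USP12. The groups were apart by more than their spread, at 138.9 ± 4.93 and 84.3 ± 7.84 CPM (SD, n = 2 each). The log2 difference was -0.72 (SE 0.34), with nearly the same value against each control, -0.76 and -0.69, but it was under the fold size of the nominal rule and did not pass the tests (edgeR quasi-likelihood adjusted p = 0.752). No fit that kept every library gave an adjusted p under 0.05. JUND had the highest GC content of the members, at 69.9%. Its estimate was -0.42 with a GC content offset and -0.27 with a replicate block and that offset.

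**Figure D3:**
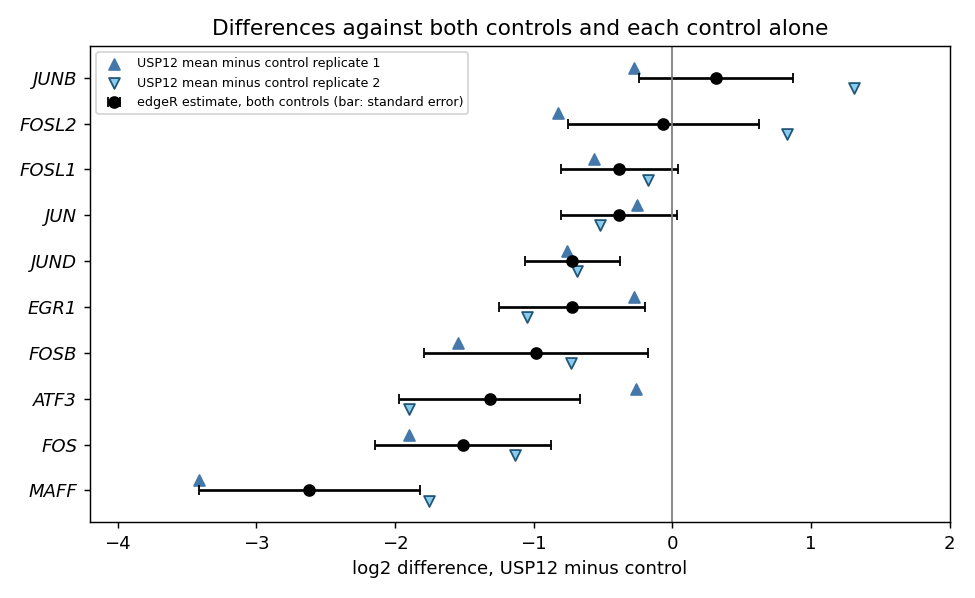
USP12 minus control log2 differences of the 10 members: the estimate over all 4 libraries with its SE, and the differences of the USP12 mean against control replicate 1 alone and against control replicate 2 alone. JUND, JUN and FOSL1 differ little between the controls, FOSL2 and JUNB lie on either side of 0 depending on the control, and MAFF lies below 0 against either.

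ATF3 (ENSG00000162772, chr1:212565334-212620777, plus strand), a stress-induced repressor that pairs with JUN proteins, was at 7.64 and 24.05 CPM in the controls and at 6.91 and 5.82 CPM in the USP12 libraries. Control replicate 2 stood above the other 3 libraries. USP12 replicate 1, with a Poisson interval of 5.60 to 8.44 CPM, lay within counting error of control replicate 1, whose interval was 6.22 to 9.29 CPM. The log2 difference of -1.32 (SE 0.65, edgeR adjusted p = 0.776) was -0.26 against control replicate 1 and -1.90 against control replicate 2. The estimate was -1.92 in the fit without control replicate 1 and -0.24 in that without control replicate 2. No fit that kept every library gave an adjusted p under 0.05.

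EGR1 (ENSG00000120738, chr5:138465479-138469303, plus strand), an early growth response factor induced through SRF and ERK, followed the same order of libraries as ATF3. Its levels were 7.49 and 12.9 CPM in the controls and 6.77 and 5.61 CPM with USP12. Again the difference from control replicate 1 lay within counting error, as the interval of that library was 6.09 to 9.12 CPM and that of USP12 replicate 1 was 5.47 to 8.28 CPM. The log2 difference was -0.72 (SE 0.52, edgeR adjusted p = 0.889), split into -0.28 and -1.05 against the controls.

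The members differed in which control was the higher one, given here as a description. Control 2 minus control 1 on the log2 scale was between -1.66 and -0.76 in MAFF, FOSL2, JUNB, FOSB and FOS, nearer to 0 in FOSL1 (-0.39) and JUND (-0.07), and above 0 in ATF3 (1.64), EGR1 (0.77) and JUN (0.27). The median gap between the controls was 0.88 log2 units over all tested genes and that between the USP12 libraries was 0.24. In the USP12 pair FOSB, MAFF, FOSL2 and FOS had gaps wider than 97.7%, 97.2%, 96.0% and 92.5% of tested genes, each with replicate 2 the lower.

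By level per kilobase of exon, JUNB and JUND led in all 4 libraries and FOSB was last in all 4. JUNB was at 125.7 and 41.7 CPM per kb in the controls and at 112.7 and 95.2 in the USP12 libraries, and JUND at 73.8, 70.2, 46.6 and 40.8 CPM per kb in the same order. In the controls JUNB (mean 83.7 CPM per kb) and JUND (72.0) did not differ beyond the spread of JUNB, whereas in both USP12 libraries JUNB was above JUND by more than the spread of either. FOSL2 (14.4 and 13.8 CPM per kb, control and USP12 means) and FOSL1 (13.8 and 10.6) followed, with FOSL2 ranging from 6.98 to 21.9 over the libraries, so that their order did not hold beyond the spread. MAFF was at 14.1 and 4.45 CPM per kb in the controls and at 2.28 and 0.741 with USP12, below JUN (5.68 and 7.03) in both USP12 libraries but above it in control replicate 1 (7.54). FOS, EGR1 and ATF3 lay between 0.630 and 6.02 CPM per kb, and their order changed from library to library. Against all tested genes, JUNB and JUND stood above 93.6% or more in every library, and FOSB above 4.25% to 27.0%. Exonic lengths are unions over all annotated isoforms, which lowers the per-kb level of genes with long rare isoforms.

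Within the FOS subfamily, FOSL1 and FOSL2 together made up most of the summed level per kb in every library, and FOS gave 8.42% and 9.62% in the controls and 4.13% and 3.28% with USP12. FOSB gave 2.30% and 2.51% in the controls and 1.85% and 0.844% with USP12. Which of FOSL1 and FOSL2 was larger followed the replicate number: FOSL2 gave 52.1% and 61.8% in the replicate 1 libraries, control then USP12, and FOSL1 gave 55.4% and 56.0% in the replicate 2 libraries. Within the JUN subfamily, JUND gave 35.7% and 58.0% in the controls and 28.2% and 28.5% with USP12, JUNB gave 60.7% and 34.5% in the controls and 68.3% and 66.5% with USP12, and JUN stayed between 3.44% and 7.51%. The shares of FOS, FOSB, JUND and JUNB did not overlap between groups, those of JUN, FOSL1 and FOSL2 did, and no test was run on them. Shares within a subfamily depend on each other, so that those of JUNB and JUND are not separate results. The levels of JUNB and FOSB themselves overlapped between groups. By level, 17.0% of all tested genes lay below both controls and 19.5% above, and no such background was computed for shares. Summed JUN subfamily mRNA exceeded summed FOS subfamily mRNA 4.92- and 5.62-fold in the controls and 5.11- and 7.44-fold with USP12.

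**Figure D4:**
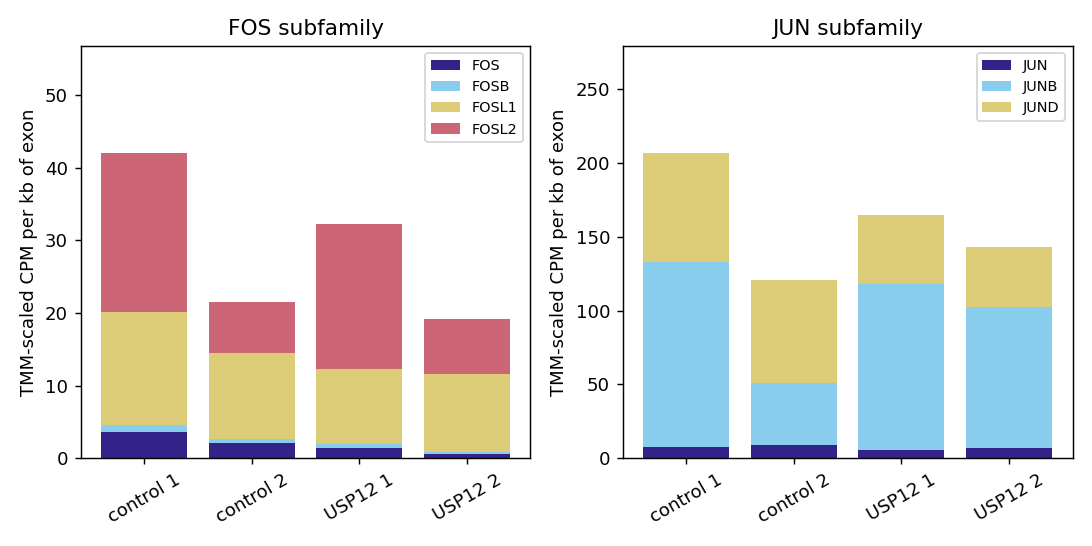
Stacked levels (TMM-scaled CPM per kb of exon) of the FOS subfamily, left, and the JUN subfamily, right, in each of the 4 libraries. The FOSL2 block is large in both replicate 1 libraries and small in both replicate 2 libraries, and the JUNB block is small in control replicate 2 alone.

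The other basic leucine zipper genes, of which 20 of 24 were tested, had a median log2 difference of -0.22, which was -0.07 without control replicate 2. By estimate 15 were lower and 5 higher, and by the nominal rule 1 was lower and 0 higher. The called gene was BATF2, an interferon-responsive partner of JUN proteins, at 8.78 and 18.3 CPM in the controls and 3.24 and 0.970 CPM with USP12 (log2 -2.69, SE 0.77, edgeR adjusted p = 0.401). Of the most abundant, the stress regulator ATF4 had a log2 difference of -0.08 and overlapping groups, CEBPB one of -0.48, and NFE2L1, a CNC partner of small MAF proteins, one of -0.88, the last 2 with both USP12 libraries below both controls. In the list 4 genes lay below and 1 above the controls in that sense.

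Among 33 other immediate-early genes, 29 were tested, 17 with lower and 12 with higher estimates. By the nominal rule 2 were lower, KLF2 (log2 -1.42, SE 0.48) and ZFP36 (-1.13, SE 0.40), an mRNA decay factor that acts on cytokine transcripts, and 3 were higher, ZFP36L1 (1.43, SE 0.55), PHLDA1 (1.15, SE 0.34) and CCN1 (1.14, SE 0.40). None had an adjusted p under 0.05 by the edgeR quasi-likelihood test, the range over these 5 being 0.422 to 0.606. ZFP36L1, a paralog of ZFP36, was at 196 and 115 CPM in the controls and at 235 and 602 CPM with USP12, so that 1 library carried most of its difference. PHLDA1, a target of ERK signalling, was at 200 and 155 against 402 and 384 CPM. ID1, the most abundant of the list, was at 859 CPM in control replicate 1 and between 226 and 290 CPM in the other 3 libraries. In the list 10 genes lay below and 8 above the controls, and its median of -0.18 became 0.20 without control replicate 1.

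The kinases and factors that act upstream of the members, 31 of 32 tested, split evenly by estimate, with 16 lower and 15 higher. MAP2K3, a kinase of p38, was at 92.8 and 51.6 CPM in the controls and 25.8 and 28.0 CPM with USP12 (log2 -1.43, SE 0.44), and MAP3K5 (-1.80, SE 0.61) and RPS6KA2 (-2.11, SE 0.82) were the other genes called lower by the nominal rule. The JNK gene MAPK10 was called higher (log2 4.01) from 0 and 4 counts in the controls to 24 and 35 with USP12. The ERK kinase MAP2K2 (-0.62), RPS6KA3 (-0.34) and the SRF cofactor MRTFA (0.58) were the most abundant and were not called. The list held 6 genes below and 6 above the controls. Its median was -0.17, with -0.16 without control replicate 1 and 0.36 without control replicate 2.

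AP-1 target genes named from textbook knowledge, 21 of 30 tested, ranged from CXCL8 to IL11 in their differences, with 14 lower and 7 higher by estimate. By the nominal rule, in the fit to all 4 libraries without a block, 4 were lower and 1 higher, beside 4.41% and 2.92% of all genes. CXCL8, a neutrophil chemokine, was at 137.6 and 24.6 CPM in the controls and 5.11 and 6.51 CPM with USP12 (log2 -3.80, SE 0.87, edgeR adjusted p = 0.298). PLAUR, the urokinase receptor, had a log2 difference of -2.11 (SE 0.62), LAMB3, a laminin chain, -2.17 (SE 0.68), and NTS, the neurotensin precursor, -1.99 (SE 0.78). In all 4 genes control replicate 1 was the highest library by far, and both USP12 libraries lay below both controls. IL11, a cytokine of the IL6 family, was the 1 gene called higher, at 4.99 and 1.94 CPM in the controls and 24.1 and 23.4 CPM with USP12 (log2 2.78, SE 0.61, edgeR adjusted p = 0.280). Of the most abundant targets, CD44 was 0.55 higher with both USP12 libraries above both controls, EZR differed by -0.42 with both below, and HMGA1 differed by -0.16 with overlapping groups. In total 6 targets lay below and 5 above the controls. The median of -0.44 became 0.04 without control replicate 1 and -0.31 without control replicate 2. With a replicate block the adjusted edgeR test called 3 targets lower and 1 higher, beside 251 and 153 of the 15222 genes. The nominal rule then called 4 lower and 3 higher, beside 717 and 575 of all genes. The collagenase gene MMP1, a classical AP-1 target, had 2 counts at most in any library and was not tested.

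EGR1 targets and the NAB repressors, 9 of 12 tested, had a median of 0.02. TXNIP, a glucose-sensing arrestin, was called lower by the nominal rule, at 62.7 and 113 CPM in the controls and 6.12 and 4.29 CPM with USP12 (log2 -4.08, SE 0.53, edgeR adjusted p = 0.154), while GDF15 (-0.78) was not called, and 2 genes lay below and 3 above the controls. Heat shock genes, which move with handling of cells and were listed for that reason, were tested for 11 of 12 members. By estimate 4 were lower and 7 higher. Their median was 0.28, with 0.45 without control replicate 1 and 0.0038 without control replicate 2. HSPA8, the constitutive HSP70, whose pseudogenes can take some of its reads, was called higher, at 395 and 238 CPM in the controls and 1361 and 873 CPM with USP12 (log2 1.82, SE 0.42, edgeR adjusted p = 0.301), HSP90AA1 (0.57) and HSPB1 (0.40) were not, and 1 gene lay below and 3 above the controls. The summed heat shock level, which includes HSPA8, was 2274 and 1574 CPM in the controls and 3460 and 2694 CPM with USP12. The sum does not stand for every gene of the list, 4 of whose tested genes had lower estimates. The part of the heat shock genes in the differences of the members was not tested.

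Markers of other cells moved with the groups in places. The 3 endothelial markers summed to 15.4 and 8.59 CPM in the controls and 0.432 and 1.32 CPM with USP12, with CDH5 and PECAM1 called lower by the nominal rule and VWF at 3 counts at most. Of the 4 haematopoietic markers, summing to 47.7 to 79.8 CPM, LYZ was called lower, at 11, 27, 1 and 3 counts. The 4 fibroblast markers summed to 14.9 and 3.10 CPM in the controls and 20.01 and 15.9 CPM with USP12. The 6 epithelial genes had a median log2 difference of -0.80, with -0.26 without control replicate 1 and -1.16 without control replicate 2. By estimate 5 were lower and 1 higher, and 4 lay below both controls in both USP12 libraries. Among them KRT19 was called lower (log2 -2.14, SE 0.66), with 437 CPM in control replicate 1, 114 in control replicate 2, and 68.7 and 55.9 with USP12. The 6 genes of the NRF2 programme, which is constitutively active in A549 and works through CNC partners of the small MAF proteins, summed to 9217 to 10236 CPM, and 0 of them were called. The part of these markers in the differences of the members was not tested, and in bulk samples fewer cells of a type and less RNA per cell cannot be told apart.

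**Figure D5:**
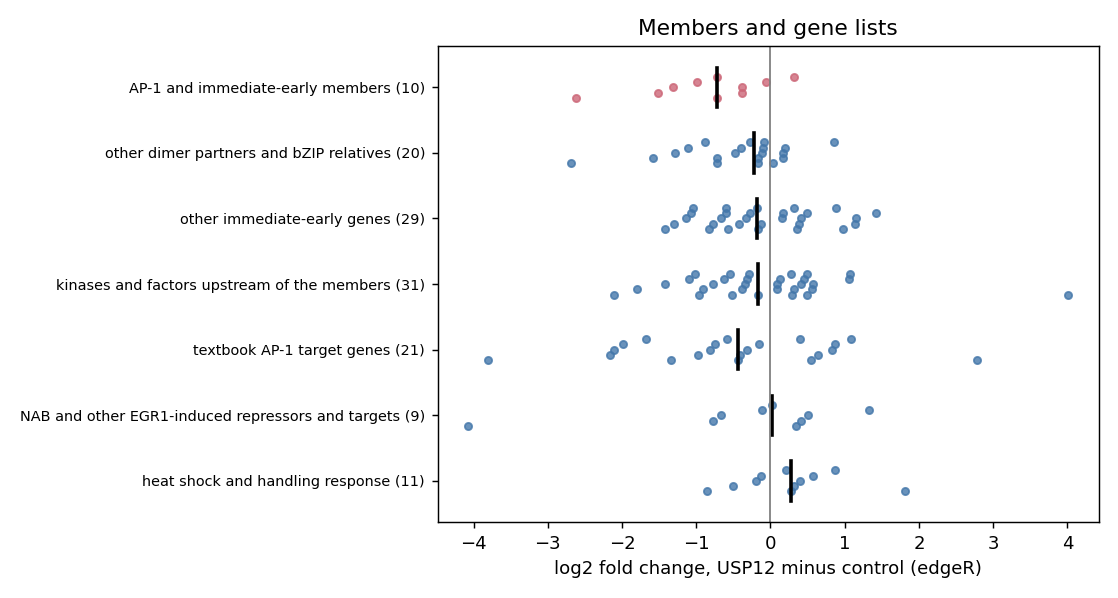
USP12 minus control log2 differences of every tested gene in the members' set and in 6 context lists, 1 point a gene, with a bar for each list's median and a line at 0. The members' median lies at -0.72 and each list drawn spreads to both sides of 0, and the cell type marker lists are not drawn.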

How the data were processed

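Total RNA from A549 cells was extracted with TRIzol, made into stranded mRNA libraries and sequenced by the authors, who mapped the reads to GRCh38 with HISAT2 2.0.4 and counted uniquely mapped fragments per gene with StringTie 1.3.0 (versions from the submitters' processing notes). The deposited values are raw counts per gene, 1 file a library, 2 control and 2 USP12 libraries. Which annotation release was used, and whether strand was used, is not given in the sources used here. Totals were 14280081 to 16305356 counts, which bound the precision of genes with few counts, and Poisson intervals and the floor of 3 counts cover counting error only.

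Genes were filtered with filterByExpr, scaled by TMM and tested with the quasi-likelihood test of edgeR 4.0.16 in R 4.3.3, with group as the only term, p-values adjusted by Benjamini-Hochberg over all 15222 genes tested, and log2 differences given as USP12 minus control. The SE is the size of the log2 difference over the square root of F and is approximate. The nominal rule was an unadjusted p of 0.05 or less with a log2 difference of at least 1 in size. Replicate gaps used log2 CPM with a prior count of 2. Exonic lengths, positions and GC content came from GENCODE release 44, and promoter windows from RefSeq. Named were all members, and from each list the genes called by the adjusted or nominal rule and the 3 of highest mean CPM, beside which MMP1 and single markers were added after their values were seen. A gene that this rule names is not reported here. The members and lists were chosen with earlier results of these data known. Alternatives were DESeq2 1.42.0 size factors and Wald test, the edgeR exact test, no filter or at least 10 counts in every library, a replicate block, a GC content offset, both together, and leaving out each library. The test script was checked on simulated data.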

Additional observations from a re-analysis of the deposited data

How the results depend on the processing

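Of 120 member values over 12 alternatives, 115 kept the sign of the reported estimate. The exceptions were FOSL2, at 0.17 with a GC content offset, 0.14 with a replicate block and GC content offset, 0.99 without control replicate 1 and 0.49 without USP12 replicate 2 (-0.89 to 0.99 over the leave-one-out fits), and JUNB, at -0.25 without control replicate 2 (-0.25 to 1.32). USP12 was at 6.32 with an edgeR adjusted p of 0.0975. It passed the adjusted threshold with no filter (6.33), by DESeq2's Wald test (6.31) and by an exact test (6.32). It also passed with a replicate block (6.43), a GC content offset (6.46) or both (6.46). With DESeq2 size factors (6.30, edgeR adjusted p = 0.0941) or at least 10 counts in every library (6.32, edgeR adjusted p = 0.0902) it did not. Without any 1 library its estimate was 5.85 to 7.06. With every library kept, members called lower by the adjusted test numbered 1 with no filter, the Wald test, the replicate block, or block and offset. The last called 133 of all genes lower and 96 higher, and no such fit called a member higher. By the nominal rule 3 members were lower with no filter, beside 1173 of 24800 genes, and 2 with at least 10 counts, beside 521 of 13319. There were also 2 with the Wald test, the exact test, the block, the offset and both, beside 827, 804, 717, 638 and 640 of 15222 genes. The counts of members called in this section leave out the fits without 1 library, where the spread comes from the other group's pair alone. The median of the members was -0.53 with the offset and -0.37 with block and offset, where that of all genes moved from -0.06 to 0.07 and 0.12. Under the offset JUND was at -0.42, JUNB at 0.93 and FOSL1 at -0.07. The libraries share replicate numbers only: deviations of same-numbered libraries correlated at 0.15 over tested genes, in 2 pairs, and under the replicate block, with infinite prior degrees of freedom, the adjusted edgeR test called MAFF (adjusted p = 0.00270) and, over all genes, 251 lower and 153 higher against 0 without it, with 361 and 167 under no filter, 277 and 133 by the DESeq2 Wald test, 262 and 167 by the exact test, and 10 and 6 with the offset. Under the block that test called 3 AP-1 targets lower and 1 higher, and 1 heat shock gene higher. It called 1 gene lower in each of the basic leucine zipper, EGR1 target, epithelial and endothelial lists, and none in the other lists. Without control replicate 1 the median was 0.20 for the other immediate-early genes and 0.04 for the AP-1 targets. Without control replicate 2 these were -0.33 and -0.31. All 20 group means per kb stayed within their replicate SD under DESeq2 size factors. With 2 libraries a group, and control replicate 1 the farthest from the rest, the calls rest on few degrees of freedom. The causes of the changes were not tested.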

Other observations

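The genes whose centred log2 CPM lay closest to a member over the 4 libraries were sought by Euclidean distance, as a description of 4 points each that share their libraries. FOS and FOSB were each other's nearest member (distance 0.63), and the nearest other genes to FOS were CSRP1 (0.12) and HMHA1 (0.17). FOSL2 and JUNB were nearest to each other at 0.95, ATF3 was nearest to EGR1 (0.74), and JUND and FOSL1 were nearest to each other at 0.45. EGR1 lay closest to the small MAF gene MAFG (0.040), and FOSL1 to RHOA (0.028). MAFF had no close member, with FOS nearest at 1.303, and its nearest other genes, ADORA1 (0.48) and SSTR5-AS1 (0.50), were farther off than those of FOS. The heat shock gene HSPA8 and the immediate-early phosphatase gene DUSP1 both lay higher in the USP12 libraries, DUSP1 at 71.1 and 39.7 CPM in the controls and 112 and 106 CPM with USP12 (log2 0.98, edgeR adjusted p = 0.688), a gene chosen after its values were seen.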
